A study of Mus musculus with 12 samples.

Results

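The genes described here are those of the proteins of the cytosolic ribosome, chosen by name alone: every gene of the deposited normalized table called Rpl or Rps with a number, the 3 acidic stalk genes Rplp0, Rplp1 and Rplp2, and Rpsa, without the kinases whose names begin with Rps6k and without rows marked as pseudogenes. The rule found 87 genes among the 17408 of that table, and all 87 passed the low-count filter that left 18161 genes for testing. By name, 46 are canonical proteins of the large subunit, 31 are canonical proteins of the small subunit, and 10 are paralogues or copies (Rpl3l, Rpl6l, Rpl7l1, Rpl22l1, Rpl32l, Rpl39l, Rps3a2, Rps3a3, Rps4l and Rps27l). Of the 10, 5 are annotated as protein coding, while Rpl6l, Rpl32l, Rps3a2 and Rps3a3 are annotated as processed pseudogenes and Rps4l as a transcribed processed pseudogene (GENCODE M21 on GRCm38).

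RNA came from the femoral shaft of male mice, from which the marrow had been spun out. The 4 groups, each of 3 libraries, were wild type (Cat +/+) given PBS (libraries 7, 8 and 9), wild type given ethanol (10, 11 and 12), catalase knockout (Cat -/-) given PBS (1, 2 and 3) and catalase knockout given ethanol (4, 5 and 6). Catalase, a peroxisomal enzyme, turns hydrogen peroxide into water and oxygen. Mice aged 12 weeks were gavaged on 4 successive days with 3, 3, 4 and then 4.5 g ethanol per kg (a 31.5% solution by volume) or with the same volume of PBS, and were killed 6 hours after the last dose. All groups shared the chow diet and the gavage procedure. Each library pooled RNA of 2 mice, so the p-values measure the spread between pools and not between single mice, and the labels give no promoter or exon for the knockout allele.

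A ribosome is built from ribosomal RNA and a single copy of most of these proteins, and cells make the proteins in nearly equal amounts. Their messenger RNAs are short, abundant and long-lived, and most begin with a run of pyrimidines at the cap, the terminal oligopyrimidine (TOP) tract, through which mTORC1 and LARP1 set how well they are translated. Control of the family is therefore known to act largely on translation, which RNA abundance does not show. In bone, ribosomal protein genes are of interest because their loss in Diamond-Blackfan anaemia affects both red cell precursors and the skeleton.

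The libraries held 19950222 to 28789308 counts. Levels below are in CPM, meaning counts divided by a library total that TMM factors had corrected for composition. Cat itself measured 65.9 to 74.2 CPM in the knockout libraries and 128 to 175 CPM in the wild-type libraries, so Cat RNA was lower in each knockout library but not absent. Osteoblast genes took 1.12% to 4.20% and osteocyte genes 0.189% to 0.491% of the counts. No gene of either list was at 0 throughout a group, and each list as a whole was present in every library. Other tissue was present in unequal amounts: 16 skeletal muscle genes took 3.08%, 3.49% and 3.70% of libraries 8, 9 and 12, and 0.137% to 1.96% of the others. Mitochondrially encoded genes took 5.04% to 6.40% of the same 3 libraries and 2.20% to 2.94% of the others. In bulk RNA, fewer cells of a type and less RNA per cell cannot be told apart.

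The start sites of these genes were searched for pyrimidine runs in a window wider than the cap itself. Some runs found lie away from the start, as in Rpl10 and Rps2, where the longest begins at base 41 after it. The shares below are therefore not shares of TOP tracts. RefSeq start sites (GRCm38.p6) were matched for 63 of the 87 members, of which 57 canonical genes with 67 start sites. A run of at least 8 pyrimidines (C or T) on the gene's strand lay within 25 bases before to 50 bases after 47 of the 67 start sites (70.1%), against 27.2% of 32851 start sites of all genes. On the other strand the shares were 13.4% and 30.4%. The letters CTTTCC, which can lie within such a run, were present on the gene's strand at 26.9% of canonical start sites and 3.50% of all, and CCGGAAG, searched on both strands of 300 bases, at 37.3% and 8.86%. Of 8 start sites of copies and paralogues, 5 (62.5%) had a pyrimidine run. The sequences below were chosen to show long canonical runs, a canonical gene with a short one, and members set beside their paralogues; each is 30 bases from the searched window, 5′ to 3′ on the gene's strand, with the longest pyrimidine run in capitals. The one for Rpl39 begins 21 bases after the start, and the others include bases before it.
Rpl7a, large subunit, chr2:26910785-26910814, plus strand: ccccacaaTTCCCTCTTCTTTCTTTCTCCa
Rpl27a, large subunit, chr7:109519183-109519212, plus strand: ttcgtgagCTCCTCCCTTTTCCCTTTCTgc
Rpl15, large subunit, chr14:18270969-18270998, minus strand: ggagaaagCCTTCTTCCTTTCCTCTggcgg
Rps16, small subunit, chr7:28350670-28350699, plus strand: aaagcccgCTTCTgtcgtgacgtagcactc
Rps27, small subunit, chr3:90213629-90213658, minus strand: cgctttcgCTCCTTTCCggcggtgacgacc
Rps27l, paralogue of Rps27, chr9:66946061-66946090, plus strand: ccaCTCCTCTCCactcctccccgccgcctc
Rpl39, large subunit, chrX:37085173-37085202, minus strand: gttcttccggtcccggCCTTTCTCTTCTCC
Rpl39l, paralogue of Rpl39, chr16:10170203-10170232, plus strand: CTCTCCCTagctcccaggcctttccggatt
Rpl7l1, paralogue of Rpl7, chr17:46782652-46782681, minus strand: aCCCCgcccggtgaggctgcgcaagcgcag
The runs of Rpl7a, Rpl27a and Rpl15 are 21, 20 and 17 bases long, and that of Rps16 is 5. Rps27 and the start site shown for its paralogue Rps27l each carry a run of 9 bases, differently placed. That of Rps27 begins 2 bases before the start and crosses it. That of Rps27l begins 22 bases before the start and ends before reaching it. At another Rps27l start site the longest run is 5, and the longest run of Rpl7l1 in this window is 4. A match describes these letters only and is not evidence that a factor acts there.

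The canonical genes were among the most abundant RNAs of the shaft. By CPM, 66 of the 77 were among the 500 highest of the tested genes, and per kilobase of exon 74 of 77 were. They lie on 19 chromosomes, with Rpl10, Rpl36a, Rpl39 and Rps4x on the X, and have a median coding transcript length of 711.5 bases against 2173 for all tested coding genes. Within 30 of the 77 lie snoRNA genes, 58 in all. The highest level per kilobase was that of Rplp1 (ENSMUSG00000007892, chromosome 9, 61913284-61914542), a protein of the stalk that recruits translation factors, at 1428 CPM per kb. It was followed by Rps3a1, a small subunit protein, at 860, Rps15, a protein of the small subunit head, at 712, the stalk base Rplp0 at 654 and Rpl36 at 568 CPM per kb. Rpl4, at 566 CPM per kb, did not differ from Rpl36 by more than the spread between libraries.

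The copies lay far lower. The lowest canonical gene was Rps15a at 61.5 CPM per kb, and a single one of the 10 copies and paralogues, Rps27l at 78.9 CPM per kb, exceeded it. Rpl22l1 (34.5), Rpl3l (28.3), Rpl7l1 (22.9) and Rps4l (14.7 CPM per kb) came next. The 5 lowest members were Rpl6l, Rpl39l, Rps3a2, Rpl32l and Rps3a3, at 3.43, 3.35, 2.99, 2.07 and 1.20 CPM per kb. Of these, Rpl39l, a paralogue best known from the testis, is the only coding gene. The order depends on the length used: per kilobase of coding transcript the lowest canonical gene was Rps20 at 107 CPM, and both Rps27l (129) and Rpl22l1 (127) lay above it.

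**Figure D1:**
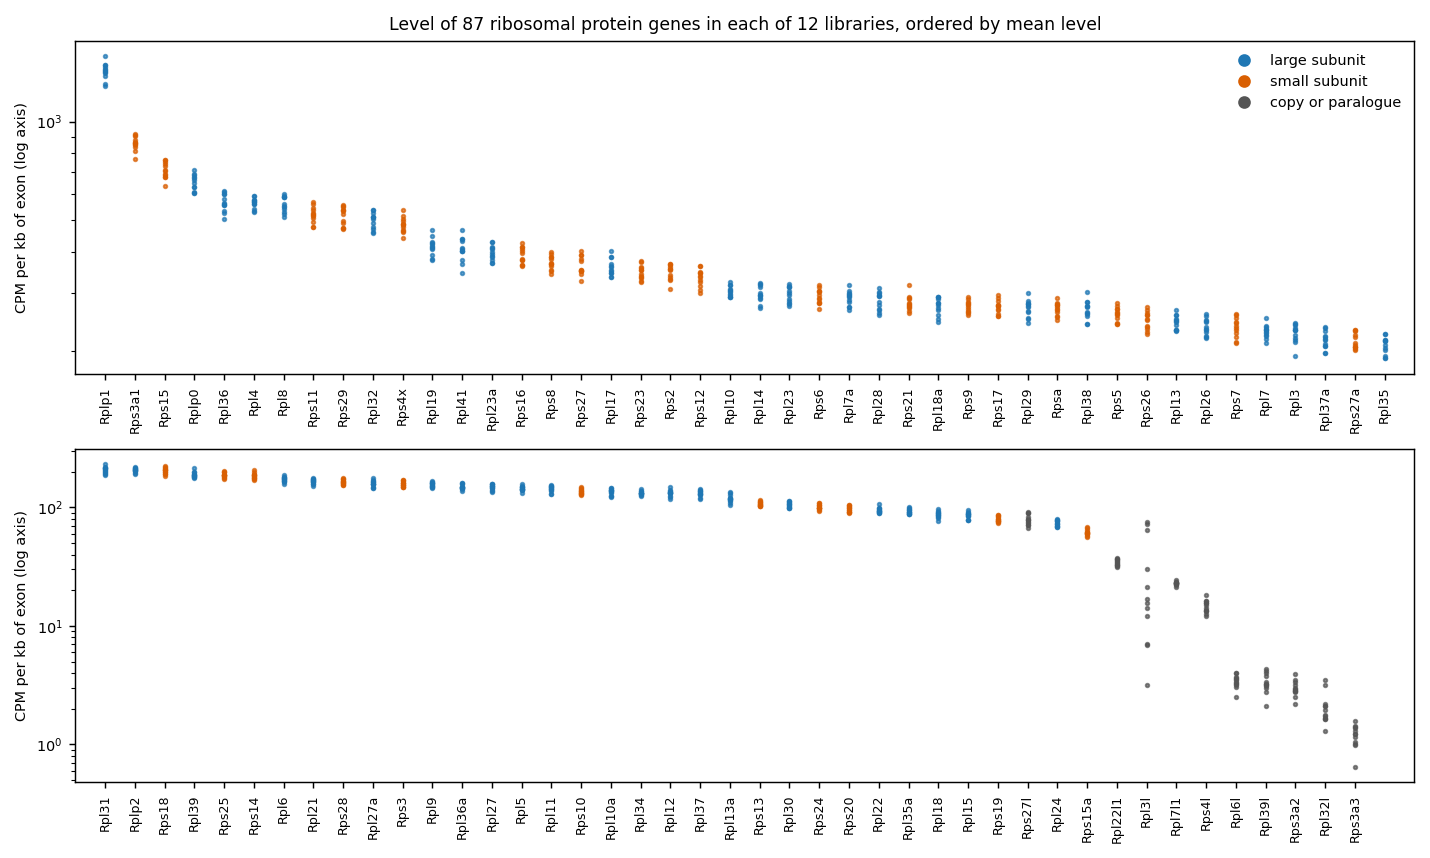
Level of each of the 87 members in CPM per kb of exon (vertical, log axis), 12 points per gene for the 12 libraries, ordered by mean level from Rplp1 (1428) to Rps3a3 (1.20); colours mark large subunit, small subunit, and copies or paralogues. The canonical genes keep a narrow band of points each, and Rpl3l is the member whose libraries are spread widest.

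The canonical genes varied little and varied together. The standard deviation (SD) of a gene's log2 CPM over the 12 libraries had a median of 0.079 for canonical genes, with a range from 0.052 for Rpl34 to 0.12 for Rpl41, against 0.18 for all tested genes. Abundant genes have less counting error, and the median level was 443 CPM for canonical genes and 16.9 CPM for all tested genes, so the 2 SDs are not matched for level. What variation there was belonged to whole libraries. All 77 canonical genes were above their own 12-library mean in library 3, 76 were in library 10, 73 in library 4 and 71 in library 5, while 0 were in library 7 and 1 each in libraries 1, 11 and 12. The median deviation of the 77 genes ran from -0.098 (library 12) to 0.10 (library 10) on the log2 scale, both in wild-type mice given ethanol. Single-gene differences between groups therefore share the same few libraries and are not independent of each other.

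The 87 members took 3.19% to 3.96% of each library's counts. The shares were 3.48%, 3.35% and 3.30% in wild type with PBS (mean 3.38% ± 0.093, SD, n = 3) and 3.96%, 3.43% and 3.19% in wild type with ethanol (3.53% ± 0.394, n = 3). They were 3.55%, 3.57% and 3.81% in knockout with PBS (3.64% ± 0.144, n = 3) and 3.82%, 3.83% and 3.77% in knockout with ethanol (3.81% ± 0.0313, n = 3). In PBS the lowest knockout library lay above the highest wild-type library, whereas under ethanol library 10 exceeded all knockout libraries. Scaled by TMM, which allows for the large share that muscle and other abundant genes take, the 4 means were 3.53%, 3.52%, 3.62% and 3.68% in the same order, and all differed by less than the largest SD (0.275, wild type with ethanol). Beside these shares, the muscle list took 0.336% to 3.49% and 0.137% to 3.70% of the wild-type PBS and ethanol libraries, and 0.325% to 1.26% and 0.674% to 0.859% of the knockout PBS and ethanol libraries. The erythroid list (11 genes, none at 0 throughout a group) took 1.11% to 1.64%, 1.05% to 2.09%, 1.85% to 2.14% and 1.92% to 2.16% in that order. The part of either in the family's share was not tested.

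**Figure D2:**
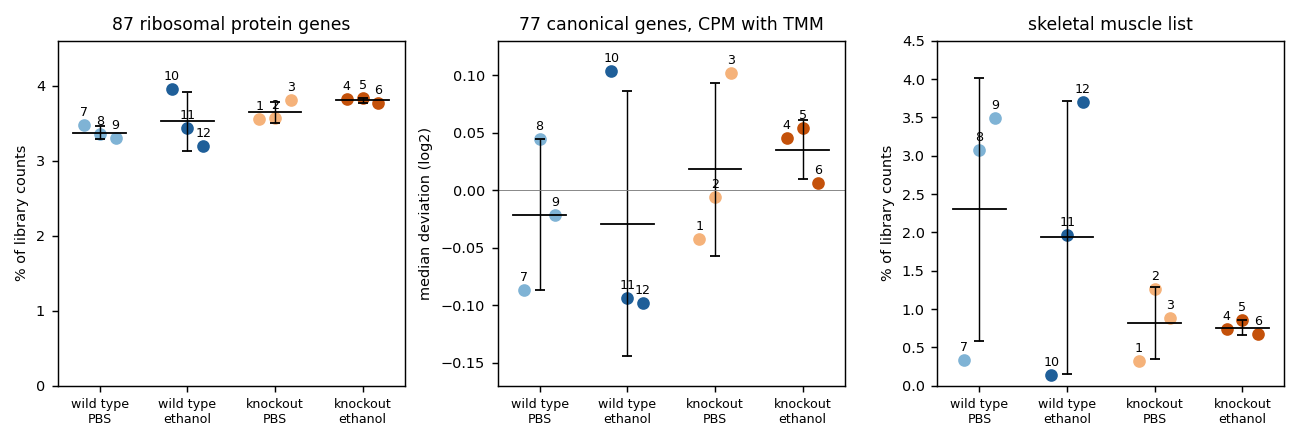
Per library, in 4 groups of 3 numbered libraries with mean (line) and SD (bars): left, percent of counts in the 87 members; middle, median log2 deviation of the 77 canonical genes from their 12-library means; right, percent of counts in 16 skeletal muscle genes. Libraries 10 and 12, both wild type with ethanol, hold the highest and lowest median deviations, and libraries 8, 9 and 12 hold most muscle RNA.

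In wild-type mice the canonical genes had nearly the same levels with ethanol and with PBS. In edgeR's quasi-likelihood test with Benjamini-Hochberg adjustment over all tested genes, 0 of 87 members passed an adjusted p of 0.05, where 1.26% of all tested genes did (229). DESeq2 and limma-voom, which called 713 and 152 of all genes, also called 0 members. At an unadjusted p under 0.05 there were 2 members, against 16% of all genes. The median log2 fold change of the canonical genes was -0.0033 (35 of 77 above 0), and over all tested genes it was -0.018. The highest value was 0.13 (SE 0.076) for Rps27, a zinc finger protein of the small subunit, and the lowest -0.11 (SE 0.076) for Rpl38, a large subunit protein whose loss alters the mouse axial skeleton. Rps27 measured 340, 368 and 366 CPM with PBS and 420, 393 and 359 CPM with ethanol, and Rpl38 139, 153 and 153 CPM with PBS and 149, 131 and 131 CPM with ethanol. Both genes overlapped between the groups, and their adjusted p were 0.454 and 0.524. No member was higher with ethanol without overlap, where 7.32% of all genes were.

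In the main fit, with TMM scaling and all 12 libraries, the intervals bound how large each gene's difference could be. They do not cover the shifts between the alternatives given below. The 95% interval of all 77 canonical genes lay within a 1.25-fold change in either direction in wild-type mice, against 30.6% of all tested genes. The outermost bounds were 0.826-fold and 1.22-fold. Such shares, here and below, are not matched for level: the median SE here was 0.072 for canonical genes and 0.14 for all tested genes. The direction of the small median turned with single libraries: it was -0.072 (3 of 77 above 0) without library 10, 0.031 without library 11, 0.037 without library 12, 0.048 without library 8 and 0.0039 without library 9. Without the 3 libraries richest in muscle RNA (8, 9 and 12) it was 0.11, with 77 of 77 above 0 and values from 0.029 to 0.27. Here, and wherever these 3 are left out below, library 7 is the only wild-type library with PBS that remains. Intervals are not given for that setting. Upper-quartile scaling gave 0.027.

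In knockout mice 0 of 87 members passed the adjusted threshold with ethanol, against 1.87% of all tested genes (339). DESeq2 and limma-voom, which called 943 and 455 of all genes, again called 0 members. At an unadjusted p under 0.05 there was 1 member, against 16.4% of all genes. The canonical median was 0.022 (55 of 77 above 0), between -0.057 (Rpl22) and 0.096 (Rps2), and all 77 intervals lay within 1.25-fold (31.6% of all genes). Rps2, a small subunit protein near the mRNA channel, measured 603, 622 and 661 CPM with PBS and 672, 673 and 671 CPM with ethanol. Its groups did not overlap, as was true of Rpl8, Rps4x and Rps9, 4 higher members in all where 16.3% of all genes were higher without overlap. The pseudogene Rps3a3 was the 1 member lower without overlap, where 16% of all genes were. The adjusted p of Rps2 was 0.552. Next in order of p among canonical genes came Rps9, with a log2 fold change of 0.083 (adjusted p = 0.567), Rpl28, with one of 0.089 (adjusted p = 0.645), and Rpl8, with one of 0.078 (adjusted p = 0.661). Without library 1 the median was -0.0067, and without library 3 it was 0.060.

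Between genotypes, the canonical genes leaned to the knockout, within the spread between libraries. With PBS, 0 of 87 members passed, against 0.011% of all tested genes (2 genes), and 0 had an unadjusted p under 0.05, against 7.43%. DESeq2 and limma-voom called 0. The canonical median was 0.042 (69 of 77 above 0), and over all genes -0.0073. The highest was Rpl41, a very short basic protein that bridges the subunits, at 0.11 (SE 0.090, adjusted p = 0.682). Wild-type libraries held 442, 471 and 472 CPM of it and knockout libraries 471, 477 and 546 CPM, and the groups overlapped at their edge. All 77 intervals lay within 1.25-fold (35.1% of all genes). Rplp1 was at 0.11 (adjusted p = 0.641), and Rpl36a and Rpl32, both of the large subunit, were at 0.087 and 0.091. Rpl3, which helps form the peptidyl transferase centre, was at 711, 694 and 685 CPM in the wild-type libraries and 734, 733 and 770 CPM in those of the knockout. With Rpl36a it made up the 2 members higher without overlap, where 8.98% of all genes were, and 0 members were lower without overlap, where 5.16% were. The lean rested on few libraries, since the median was 0.00089 (40 of 77 above 0) without library 3, 0.0081 without library 7, 0.092 without library 8 and 0.11 without libraries 8, 9 and 12.

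Under ethanol, 0 of 87 members passed between genotypes by edgeR, against 0.011% of all genes (2 genes). DESeq2 and limma-voom, which called 13 and 2 of all genes, also called 0 members. By edgeR 2 members had an unadjusted p under 0.05, against 5.78% of all genes. The canonical median was 0.064 with 75 of 77 above 0. The exceptions were Rpl34 (-0.024) and Rps25 (-0.0037). Rpl41 was again highest at 0.16 (SE 0.090, adjusted p = 0.820), with 513, 429 and 403 CPM in the wild-type libraries against 512, 507 and 483 CPM in those of the knockout, and it was the only canonical gene whose interval reached beyond 1.25-fold (upper bound 1.28-fold; 36% of all genes lay within). Rps2 was the 1 member higher without overlap (7.12% of all genes) and Rps3a2 the 1 lower (4.04%). Rpl3, Rps2 and Rpl8 followed with log2 fold changes of 0.12, 0.11 and 0.11. The pseudogenes Rpl32l and Rps3a2, first in order of p, had log2 fold changes of -0.64 (SE 0.26) and -0.40 (SE 0.17), and all 5 had an adjusted p of 0.820. Library 10 decided the size: without it the median was 0.13, 77 of 77 were above 0 and 26 members had an unadjusted p under 0.05 (12.4% of all genes did), still with 0 called. Without libraries 11 or 12 the median was 0.028 and 0.031, and without libraries 8, 9 and 12 it was 0.017.

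Averaged over both gavages, 0 members passed, against 0.011% of all genes, and 1 had an unadjusted p under 0.05 (14.3% of all genes). The canonical median was 0.051, and 76 of 77 were above 0, all but Rpl24, a late-joining large subunit protein, at -0.037. Without library 10 that median was 0.085, and 26 members had an unadjusted p under 0.05 where 21.2% of all genes did. DESeq2, which called 125 genes here, called 0 members, as did limma-voom. The outermost interval bounds of the canonical genes were 0.902-fold and 1.21-fold, all within 1.25-fold as for 48% of all genes. Rpl41 (0.13, SE 0.064), Rpl3 (0.11, SE 0.053) and Rpl10a (0.095, SE 0.050) had adjusted p of 0.356, 0.357 and 0.392.

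**Figure D3:**
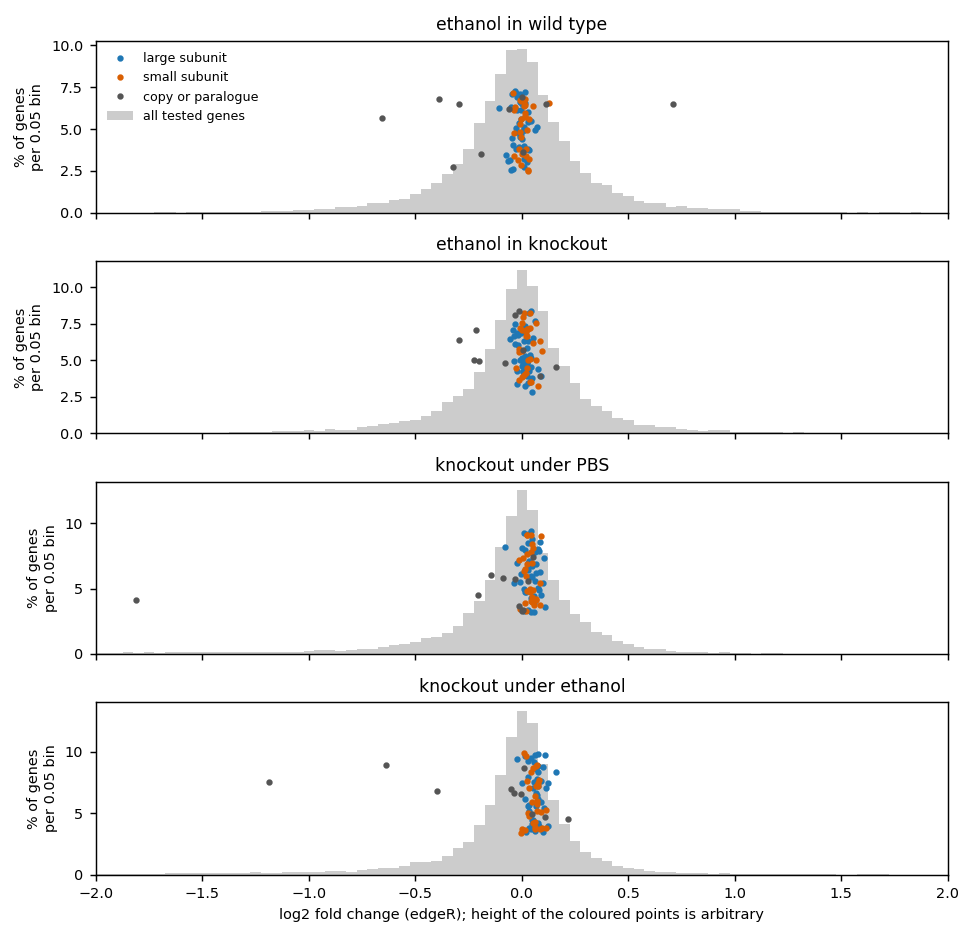
Log2 fold change (horizontal) in the 4 pairwise comparisons: grey bars, percent of all 18161 tested genes per bin of 0.05; coloured points, the 87 members at arbitrary height. Canonical members stay between -0.11 and 0.16 in the 4 panels, and the points beyond that are copies and paralogues.

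The ethanol effect was not found to differ between genotypes for any member. The difference of the effects had 0 members called and 0 with an unadjusted p under 0.05, against 0% (0 genes) and 1.98% of all tested genes, and DESeq2 and limma-voom called 0 members. The 6 members first in order of p had log2 differences of -0.55 (Rpl32l), 0.099 (Rps2), 0.11 (Rpl28), 0.10 (Rpl27), 0.087 (Rpl8) and -0.19 (Rps3a2). Its canonical median was 0.024, and 75 of 77 intervals lay within 1.25-fold, where 23% of all genes did. Without library 10 the median was 0.095, and without libraries 8, 9 and 12 it was -0.095, so its sign turned with these libraries. It was also below 0 without library 1 (-0.0054), 8 (-0.028), 11 (-0.010) or 12 (-0.025), and with upper-quartile scaling (-0.011).

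Averaging the ethanol effect over the genotypes gave narrower intervals than either genotype alone. By edgeR 0 of 87 members passed, where 10.8% of all tested genes did (1967). DESeq2, which called 2520 of all genes, called 2 members, Rps27l and Rps4l, and limma-voom, which called 1978, called 0. By edgeR 3 members had an unadjusted p under 0.05, against 26.2% of all genes. The canonical median was 0.0099 (49 of 77 above 0), with values from -0.071 (Rpl38) to 0.083 (Rps27) and all 77 intervals between 0.878-fold and 1.15-fold, within 1.25-fold as for 42.9% of all genes. The subunits did not part: the median was 0.0081 for the 46 large subunit genes and 0.011 for the 31 small subunit genes. The stalk proteins Rplp0, Rplp1 and Rplp2 were at 0.024, -0.0025 and 0.022. Rpl5 and Rpl11, which with 5S RNA bind Mdm2 and so tie ribosome assembly to p53, were at 0.014 and -0.028. The direction of the canonical median turned with the libraries left out. It was -0.024 (15 of 77 above 0) without library 10 and 0.032 (64 of 77) without library 3. Without libraries 8, 9 and 12 it was 0.070, with 77 of 77 above 0. The intervals do not cover these shifts.

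**Figure D4:**
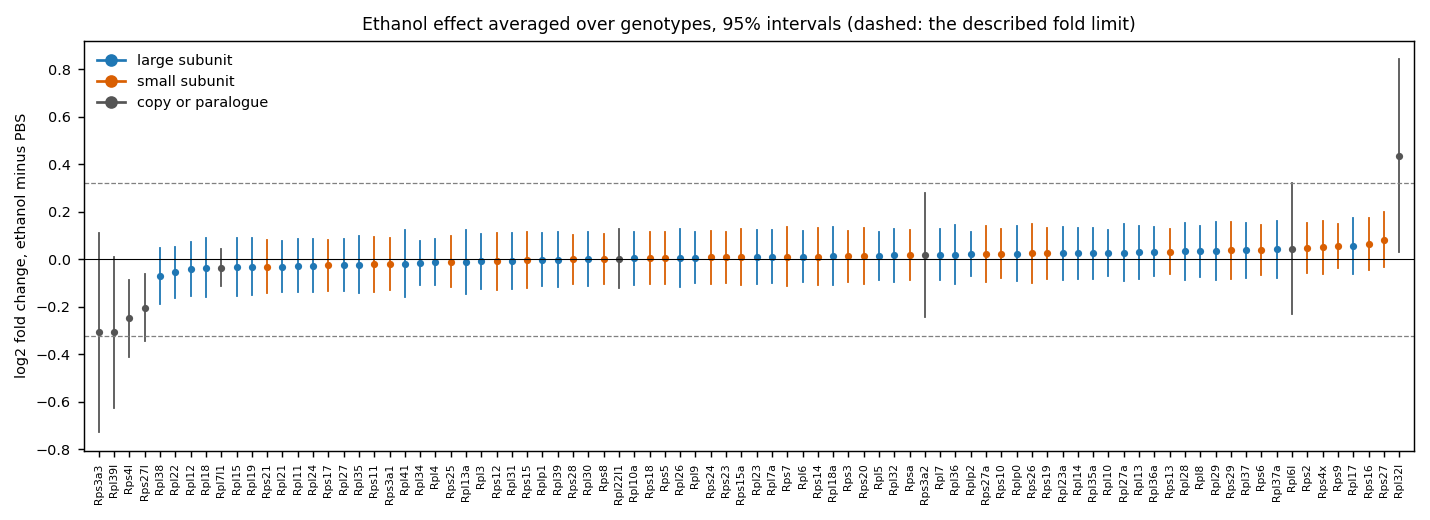
Log2 fold change of ethanol against PBS averaged over genotypes (vertical) with 95% intervals from edgeR, for 86 members in order of value; Rpl3l is left out because its interval would set the scale, and dashed lines mark a 1.25-fold change. The 77 canonical genes lie inside the lines; Rps4l and Rps27l have intervals below 0, and Rpl32l, at 13 to 30 counts a library, has one above 0.

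The members nearest the threshold were 2 paralogues. Rps27l (ENSMUSG00000036781, chromosome 9, 66946086-66949516) codes for a protein close to Rps27 and is known as a target of p53. It measured 60.9, 74.3 and 72.6 CPM in wild type with PBS and 60.1, 58.3 and 63.4 CPM with ethanol. In the knockout it was 64.2, 68.2 and 73.4 CPM with PBS and 65.4, 54.4 and 57.5 CPM with ethanol. Both pairs of groups overlapped by 1 library on each side. The log2 fold change was -0.19 (SE 0.090, adjusted p = 0.327, edgeR) in wild type, -0.21 (SE 0.090, adjusted p = 0.259) in the knockout and -0.20 (SE 0.064, adjusted p = 0.0634) averaged. DESeq2 and the fit with the muscle list as a covariate called the averaged value, as did the fits without library 4 or library 7; over 22 alternatives the adjusted p ran from 0.0213 to 0.283 and 4 called it. For averaged ethanol the p53 targets Cdkn1a and Mdm2 were at -0.026 (SE 0.11) and 0.0038 (SE 0.035), and Trp53 at -0.16 (SE 0.059, adjusted p = 0.114, edgeR). Sesn1 and Sesn2, given below with another list, were called higher. These genes are not a full list of p53 targets, and a part of p53 was not tested.

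Rps4l (ENSMUSG00000063171, chromosome 6, 148354656-148355598) is a copy of the X-linked Rps4x. It measured 17.1, 15.4 and 14.8 CPM in wild type with PBS and 11.8, 12.7 and 14.1 CPM with ethanol, without overlap. With Rpl39l it made up the 2 members lower without overlap in wild type, where 9.06% of all genes were. In the knockout it was 12.8, 14.7 and 15.3 CPM with PBS and 12.5, 13.4 and 11.4 CPM with ethanol, with overlap. The log2 fold change was -0.29 (SE 0.11, adjusted p = 0.199, edgeR) in wild type, -0.20 (SE 0.10, adjusted p = 0.376) in the knockout and -0.25 (SE 0.074, adjusted p = 0.0539) averaged. Of 22 alternatives 6 called the averaged value, with adjusted p from 0.0354 to 0.134; they included DESeq2, the muscle covariate, a filter of 5 CPM and the fits without library 1, without library 12 and without libraries 8, 9 and 12. Reads of Rps4l could be shared with Rps4x, which its sequence resembles.

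Set against their parent genes, 5 of the 6 paralogues had lower mean ratios with ethanol in both genotypes, by little for Rpl7l1 and within wide spreads for Rpl3l, and that of Rpl22l1 was higher. Rps27l counts were 17.9%, 20.2% and 19.8% of those of Rps27 in wild type with PBS and 14.3%, 14.8% and 17.7% with ethanol. In the knockout they were 17.6%, 18.6% and 17.9% with PBS and 16.4%, 13.3% and 15.6% with ethanol. The PBS and ethanol libraries did not overlap in either genotype, and how often ratios of other gene pairs do so was not counted. By CPM of single genes, 9.06% of all genes in wild type and 16% in the knockout were lower with ethanol without overlap. Rps27 was itself the canonical gene with the highest averaged value (0.083, adjusted p = 0.368), so both members of the pair enter the ratio. Rps4l was 2.05% ± 0.193 of Rps4x in wild type with PBS and 1.66% ± 0.307 with ethanol, and 1.81% ± 0.147 and 1.50% ± 0.0999 in the knockout (SD, n = 3). In wild type its groups overlapped, with the lowest PBS library at 1.93% and the highest ethanol library at 1.96%, and in the knockout they did not. Rpl39l was 1.15% ± 0.191 of Rpl39 with PBS and 0.852% ± 0.175 with ethanol in wild type, and 1.13% ± 0.155 and 0.980% ± 0.122 in the knockout (SD, n = 3), with overlap in both. The ratio of Rpl22l1 to Rpl22 was 24.5% and 25.3% in wild type and 24.2% and 25.3% in the knockout, and that of Rpl7l1 to Rpl7 lay between 12.7% and 13.3% in the 4 groups. Ratios are given without a test, since the pairs were singled out among 6 with the values known.

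**Figure D5:**
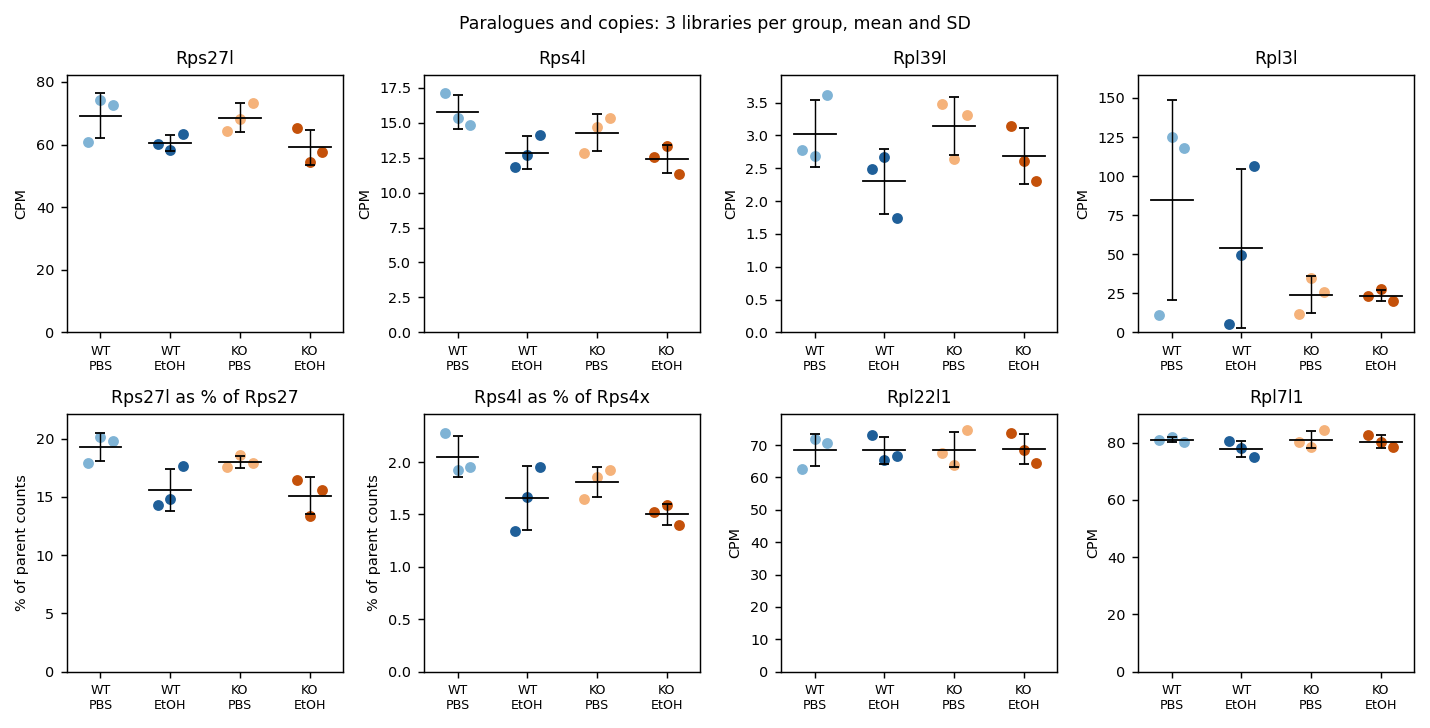
CPM of 6 paralogues and copies, and Rps27l and Rps4l as a percent of the counts of their parents Rps27 and Rps4x (lower left panels), by group (WT wild type, KO knockout, EtOH ethanol) with 3 libraries as points, mean (line) and SD (bars); axes start at 0. The Rps27l share of Rps27 does not overlap between PBS and ethanol in either genotype, and how often other pairs separate was not counted. Rpl22l1 and Rpl7l1 have nearly equal group means, and Rpl3l is spread widest.

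Rpl3l, which replaces Rpl3 in skeletal and heart muscle ribosomes, varied more than any other member. It measured 11.3, 125 and 118 CPM in wild type with PBS, 5.21, 49.8 and 106 CPM in wild type with ethanol, 11.7, 34.9 and 25.8 CPM in knockout with PBS and 23.2, 27.5 and 20.1 CPM in knockout with ethanol. The 3 libraries above 100 CPM are the 3 richest in muscle RNA, and library 10, the lowest, has the least (0.137%). The log2 fold change between genotypes was -1.81 (SE 1.06, adjusted p = 0.615, edgeR) with PBS and -1.50 (SE 0.74, adjusted p = 0.380) averaged, and with ethanol against PBS in wild type it was -0.66 (SE 1.03, adjusted p = 0.811). Between genotypes with PBS it was 1.10 without libraries 8, 9 and 12, the other direction, with library 7 the only wild-type PBS library left. When the fit held the muscle list's level as a covariate it was -0.072. As a share of Rpl3 it was 0.677% in library 10 and 17.99% in library 8.

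Of the other copies, none passed in any comparison. Rpl22l1, paralogue of Rpl22, had group means of 68.4 to 68.9 CPM, with a log2 fold change of 0.0024 (SE 0.057) for ethanol on average. Rpl7l1, related to a yeast factor of large subunit assembly, had the smallest SD of all 87 members (0.044) and group means of 77.8 to 81.1 CPM. Rpl39l measured 2.78, 2.685 and 3.61 CPM in wild type with PBS and 2.49, 2.676 and 1.74 CPM with ethanol, apart by a small fraction of 1 CPM, with an averaged value of -0.31 (SE 0.15, adjusted p = 0.208). The pseudogene Rpl32l measured 0.44 (SE 0.19, adjusted p = 0.161) for averaged ethanol, and Rps3a2 measured -0.30 (SE 0.12, adjusted p = 0.337) for averaged knockout. These rest on few counts and on reads that could be shared with parent genes. The 271 rows marked as pseudogenes of the family, left out by the rule, held counts equal to 0.248% to 0.284% of the members' own, and 0 of the 48 tested passed in any comparison.

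Some genes of ribosome assembly were called lower after ethanol. In a list of 16 ribosomal protein chaperones, assembly factors and p53 sensors, 15 were tested. With ethanol averaged over genotypes 0 rose and 6 fell, and 3 of the 15 were above 0. Of all 18161 tested genes 10.8% were called, 912 higher and 1055 lower. Mdn1, the ATPase that remodels large subunit precursors, fell by 0.46 in log2 units (edgeR, SE 0.062, adjusted p = 0.0017), and its substrate partner Nle1 fell by 0.35. Ltv1, a small subunit assembly factor, fell by 0.30 (SE 0.043, adjusted p = 0.0025), and Grwd1, a chaperone of Rpl3, fell by 0.39. Mdn1 and Ltv1 also fell within each genotype, the only 2 of the list called there, beside 1.26% of all genes in wild type and 1.87% in the knockout. Those calls moved with the processing: of 23 alternatives Mdn1 was called in 13 and Ltv1 in 10 in wild type, and in 17 and 13 in the knockout. For averaged ethanol both were called in all 22 alternatives, and without libraries 8, 9 and 12 the list's falls were 3, Grwd1 and Nle1 no longer among them. Mean Mdn1 was 51.5 CPM with PBS and 36.7 CPM with ethanol in wild type, against 51.0 and 37.8 CPM in knockout mice. Levels of bone cell markers moved alongside, with osteoblast groups apart in the knockout and osteoclast groups apart in wild type. Of the 10 osteoblast and 10 osteoclast genes, none was at 0 throughout a group. Osteoblast genes took 3.56% to 4.20% of the counts with PBS and 1.15% to 2.58% with ethanol in the knockout. In wild type they took 2.27% to 2.87% and 1.12% to 2.48%. Osteoclast genes took 0.226% to 0.269% with PBS and 0.294% to 0.409% with ethanol in wild type. In the knockout they took 0.243% to 0.276% and 0.261% to 0.311%. Their part in the assembly genes' values, and in those of the lists that follow, was not tested.

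For averaged ethanol the counts of the next 3 lists stand beside the same 10.8% of all genes called, 912 higher and 1055 lower of 18161. Of 23 other TOP messenger RNAs, 0 rose and 2 fell. Gas5, a snoRNA host that codes for no protein, fell by 0.26 (adjusted p = 0.0196, edgeR), and the initiation factor gene Eif3a by 0.14 (adjusted p = 0.0480). Of 23 genes of mTORC1 and TOP control, 4 rose and 1 fell. Those that rose included the stress-induced mTORC1 inhibitors Sesn2 (0.51, adjusted p = 0.0051, edgeR) and Sesn1 (0.27, adjusted p = 0.0301) and the mTOR-binding inhibitor Deptor (0.55, adjusted p = 0.0435). The cap-binding protein gene Eif4e fell by 0.26 (adjusted p = 0.0124). Within the knockout, where 1.87% of all genes were called, Sesn2 (0.69, adjusted p = 0.0201) and the translation repressor Eif4ebp2 (0.28, adjusted p = 0.0335) rose. In wild type Eif4ebp2 was at 0.19 (SE 0.057, adjusted p = 0.132), and the difference of the ethanol effects called no gene. The knockout call of Eif4ebp2 was made in 16 of 23 alternatives and was lost without any one of the 6 knockout libraries. That of Sesn2 was made in 19 of 23 and was lost without library 1, 2, 3 or 6. Mean Sesn2 was 18.5 CPM with PBS and 29.7 CPM with ethanol in the knockout, and 17.6 and 22.1 CPM in wild type. For averaged ethanol Sesn1 was called in 16 of 22 alternatives. Sesn2 was called for averaged ethanol in all 22 alternatives, Deptor in 8, Eif3a in 7 and Eif4e in 21, all but that without libraries 8, 9 and 12. Of 9 genes of ribosome rescue, Abce1, which splits ribosomes after termination, fell by 0.29 (adjusted p = 0.0092) and Tcf25 rose by 0.18 (adjusted p = 0.0180).

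The ribosomal proteins of mitochondria offer a comparison within the same libraries. Of 78 Mrpl and Mrps genes, 0 rose and 9 fell with averaged ethanol, again beside 10.8% of all genes (912 higher and 1055 lower of 18161). Their median was -0.086, where the canonical cytosolic genes had 0.0099. Mrpl54 fell by 0.44 (adjusted p = 0.0135, edgeR) and was called in all 22 alternatives. Mrps28 fell by 0.48 (adjusted p = 0.0425), but 8 of 22 alternatives called it, and limma-voom did not. Without libraries 8, 9 and 12 the falls were 1 (Mrpl54), where 1642 of all genes were called. Without library 7 the falls were 25, where 2152 of all genes were called. DESeq2 called 12 lower and 1 higher, where it called 2520 of all genes. The median of the mitochondrial list was -0.16 for ethanol in wild type and -0.16 for knockout with PBS, with 0 called in both. Over the alternatives these medians ran from -0.28 to 0.069 and from -0.26 to 0.080, and that of averaged ethanol from -0.14 to 0.021, so each turned sign in at least 1 of them. These comparisons hold the libraries rich in muscle and mitochondrial RNA given above, whose part was not tested. No test compared the 2 families directly.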

How the data were processed

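Bulk RNA was sequenced from 12 libraries, 4 groups of 3. Per the labels' protocols, each library pooled RNA of 2 mice. Tools listed, per the submitters' processing notes, are featureCounts, Subread 1.5.2, STAR 2.5.2b and Trimmomatic 0.36, with build GRCm38. Not given in the sources used here are strandedness, annotation release and the handling of multi-mapping reads, so members with near-identical copies are uncertain. The authors deposited whole-number counts per gene (49315 genes), used for every test. The deposited normalized signal equals counts over a constant per library (relative spread of the ratio 9.88e-10 or less); it defined the members and served 1 alternative.

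Low counts were removed by filterByExpr (at least 10 counts, 15 in total), and libraries scaled with TMM (factors 0.908 to 1.05) and fitted in edgeR 4.0.16 (R 4.3.3, quasi-likelihood, robust) with 1 coefficient per group, 8 residual degrees of freedom and a common dispersion of 0.0338. All 18161 genes were tested in 7 contrasts, with Benjamini-Hochberg adjustment over all of them and a threshold of 0.05. The standard error (SE) was the log2 fold change divided by the root of F, and intervals were 95%. CPM are counts scaled to the TMM-adjusted library total, and CPM per kb uses the union of exons in GENCODE M21. Members, lists and alternatives were chosen with earlier results of these data known. Named by rule were the 6 members with the smallest p in each comparison, the stalk proteins, Rpl5, Rpl11, paralogues with their parents, the 5 highest and lowest levels, and up to 4 called genes per companion list; further members named for extremes of value were chosen after seeing the values. Alternatives used DESeq2 1.42.0, limma 3.58.1 (voom and trend), RLE and upper-quartile factors, other filters, only the groups compared, pseudogene rows added to parents, a muscle covariate, and leaving out libraries. The fit was tested on simulated data with known changes. Totals of 19950222 to 28789308 counts gave canonical members a median SE of 0.051 for averaged and 0.072 for pairwise effects. One companion list is not reported here.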

Additional observations from a re-analysis of the deposited data

How the results depend on the processing

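No paired analysis was possible because the groups share no replicate numbers. In the 7 comparisons the count of called members stayed at 0 under every alternative run, except for averaged ethanol. There it was 1 with a filter of 5 CPM (Rps4l), where 1898 of all genes were called. It was 2 (Rps27l and Rps4l) both with DESeq2 and with the muscle covariate, where 2520 and 2752 of all genes were called. It was 1 without libraries 8, 9 and 12 (Rps4l), where 1642 of all genes were called, and 0 to 1 when each library was left out. The median over all 87 members without libraries 8, 9 and 12 was 0.11 for ethanol in wild type, 0.11 for knockout with PBS and -0.095 for the difference of the ethanol effects. That setting leaves library 7 as the only wild-type library with PBS. Leaving out single libraries gave -0.073 to 0.044 for ethanol in wild type, 0.026 to 0.13 for knockout under ethanol and -0.028 to 0.094 for the difference, with library 10 at one end of each; the cause was not tested. TMM-scaled totals gave shares of 3.68% (knockout with ethanol) and 3.53% (wild type with PBS). Of 3391 values of selected members under alternatives, 267 had the other sign, 0 of them called; 10 gained a call and 0 reversed. These members were chosen in part for the smallest p in each comparison and are not all 87. Such a choice favours signs that hold, so the share does not describe the family. For ethanol in wild type, 35 canonical genes were above 0 in the main fit. Without library 10 there were 3, and without libraries 8, 9 and 12 there were 77. Pools of 3 per group and the median SE limit what could be detected for canonical genes, and counting limits copies with few counts, such as Rpl32l.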
